A study of Homo sapiens with 19 samples.

Results

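SNORD50A and SNORD50B are box C/D small nucleolar RNAs, short guide RNAs that direct ribose methylation of ribosomal RNA. The deposited table of methylation scores lists 120 rRNA sites, and the 2 sites whose annotation names SNORD50A or SNORD50B were taken, at positions 2848 and 2863 of 28S rRNA (28S-2848 and 28S-2863, known as Cm2848 and Gm2863). Both carry SNORD50A as their only guide, and 0 of the 120 sites name SNORD50B. The rows were picked by annotation alone. As a subject, however, the pair was selected on its score C in the FBL knockdown, re-expression and mutant comparisons of earlier results of these data, so the values of those comparisons are given as a description and without a test. The sites lie 15 nucleotides apart. The nearest other listed sites are 24 nucleotides before 28S-2848 and 817 after 28S-2863, so the 6 flanking positions used on either side of each score hold no other listed site.

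In a box C/D particle the guide pairs with the rRNA around the target, and the methyltransferase fibrillarin (FBL) adds a methyl group to the ribose of the nucleotide fixed by that pairing. RefSeq (GRCh38.p14) places both SNORD50A and SNORD50B inside SNHG5, a non-coding host gene, with lengths of 75 and 71 nucleotides. The pair is known for deletions in several human cancers. An rRNA assay does not measure the guides themselves, so their levels in these cells were not analysed here.

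All 19 libraries are of Kasumi-1 cells, an acute myeloid leukaemia line kept in culture. The knockdown (KD) libraries, 2 per group, all had 100 ng/ml doxycycline: FBL KD without re-expression and control KD without re-expression, and FBL KD with the mutant FBLTri, with the mutant FBLQua, with wild-type FBL or with empty vector, and control KD with empty vector. The labels of the 5 others give no treatment: SNORD127 knockout clones C1 and C34, clone C1 with empty vector, clone C1 with SNORD127, and a control clone. The clone libraries each stand for 1 clone, and clone C1 gave 3 of them. Column names put shFBL1 and shFBL2 on the FBL KD libraries without re-expression and shFBL4 on those with a vector, so the vector and whatever these numbers mark cannot be told apart. Titles and column names disagree on the mutants (Dual for FBLTri, Tri for FBLQua); the titles were followed. Nothing in the labels marks replicates as separate cultures, and the errors and p-values below measure only how far these libraries spread, which can be technical.

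Libraries held 5533150 to 18835537 counts of fragment ends over 7000 rRNA positions. By the share of counts at the most counted position, 1 library was unlike the others. Replicate 2 of control KD with empty vector had 20.8% there, against 2.56 to 4.90% in the 18 others. The replicates of control KD without re-expression also differed more from each other than most pairs did, with values given under the processing. SNORD127 loss lowered 1 of the 120 sites, 18S-1447, its own target (-0.583, SE 0.060, adjusted p = 0.000369 by limma), and FBL itself cannot be checked in rRNA counts.

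The measure is score C, computed by the authors within each library: 1 minus the end count next to the site over the weighted mean count of its flanks. A methyl group blocks hydrolysis next to it, so a score of 1 stands for a fully protected site and 0 for a site cut like its flanks. Scores at the pair had a median 95% counting interval of ±0.029 (lowest 0.015, highest 0.069), which covers counting error only. In bulk cells a partial loss in every cell and a full loss in some cells cannot be told apart.

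In the 9 libraries without FBL knockdown, 28S-2848 scored 0.854 to 0.887 with a median of 0.863, and 28S-2863 scored 0.701 to 0.774 with a median of 0.757. Neither was near full protection, and 28S-2848 was the higher of the pair in each of these libraries. In the 10 FBL knockdown libraries the scores ran from 0.172 to 0.728 with a median of 0.437 at 28S-2848, and from 0.062 to 0.453 with a median of 0.255 at 28S-2863. At both sites every FBL knockdown library lay below every library without it. The share of the 120 sites with the same gap was not counted, so it cannot be read as particular to the pair. Of all sites 59.2% were called lower in FBL KD without re-expression and 67.5% with empty vector (limma, adjusted p under 0.05). In control KD without re-expression, 28S-2848 ranked 26 of 120 from the lowest score and 28S-2863 ranked 17. Next to 28S-2848 in that order were 28S-2774 (SNORD99) below, at 0.857 ± 0.026, and 28S-4590 (SNORD72) above, at 0.913 ± 0.031, around 0.870 ± 0.022 at 28S-2848 (SD, n = 2 each). Next to 28S-2863, at 0.755 ± 0.013, were 28S-1868 (SNORD48) below, at 0.727 ± 0.045, and 18S-1272 (SNORD66) above, at 0.764 ± 0.084 (SD, n = 2 each). The replicates of each member overlapped those of 28S-2774, 28S-1868 and 18S-1272, and not those of 28S-4590.

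**Figure D1:**
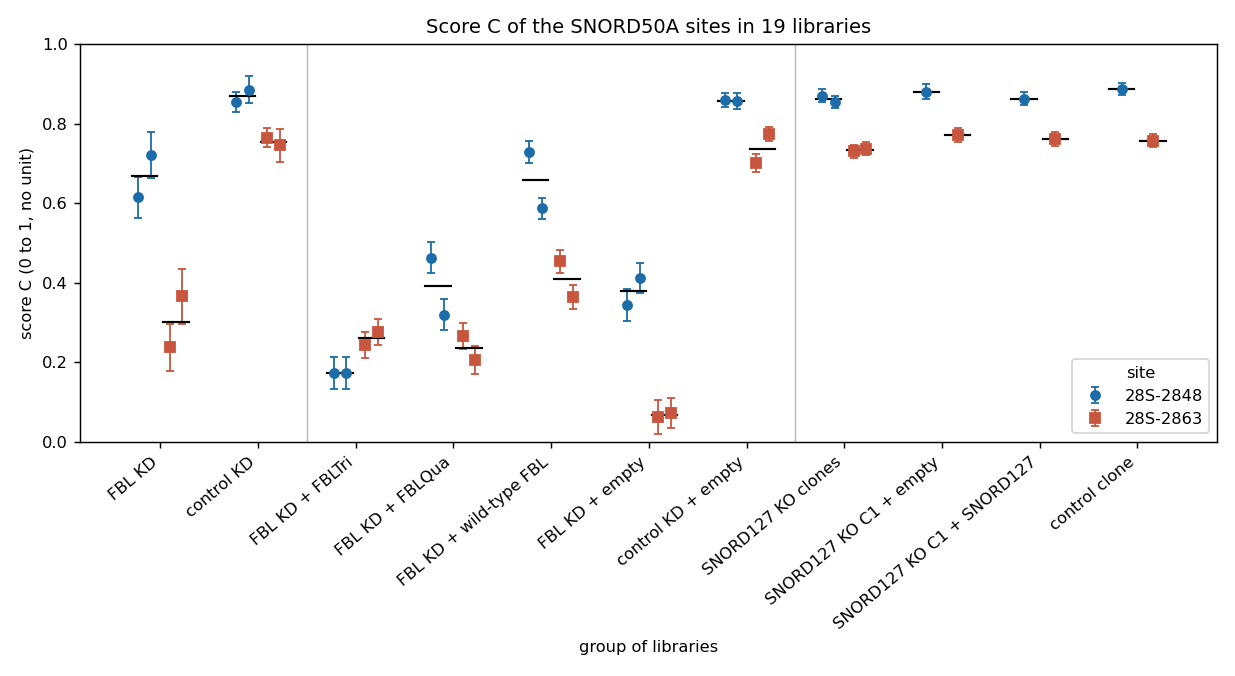
Score C (0 to 1) of 28S-2848 (circles) and 28S-2863 (squares) in each of 19 libraries, by group, with bars for the 95% counting interval and a black line for the group mean. Both sites sit lower in every FBL KD library than in the rest, and 28S-2863 lies above 28S-2848 only in the FBLTri libraries. The share of all listed sites with the same gap was not counted.

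FBL knockdown without re-expression was accompanied by lower scores at both sites, and the difference was larger at 28S-2863. At 28S-2863 the score was 0.237 and 0.366 in FBL KD, against 0.764 and 0.746 in control KD, a difference of -0.453 (SE 0.048). At 28S-2848 it was 0.614 and 0.721 in FBL KD, against 0.854 and 0.885 in control KD, a difference of -0.202 (SE 0.061). The groups did not overlap at either site. With so few libraries in each group, such a gap can arise by chance. The share of the 120 sites whose groups also lay apart was not counted, here or in the comparisons below. Among the 120 sites 28S-2863 had rank 3 and 28S-2848 rank 23 from the most negative difference, and the median over all sites was -0.068. As background, 59.2% of all sites were called lower and 1.67% higher by limma (adjusted p under 0.05), and with equal library medians 23.3% lower and 42.5% higher. Equal medians take a shift, here -0.0987, out of every site and so remove any loss shared by all sites. Sites with little change can then be called higher by that step alone, here and below.

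With empty vector in both arms the loss was deeper. 28S-2863 scored 0.062 and 0.072 in FBL KD with empty vector, against 0.701 and 0.774 in control KD with empty vector (difference -0.670, SE 0.048). 28S-2848 scored 0.344 and 0.411 in FBL KD with empty vector, against 0.859 and 0.856 in control KD with empty vector (difference -0.480, SE 0.061). At 28S-2863 the knockdown libraries were close to the level of a site cut like its flanks, while 28S-2848 scored higher. Unlisted positions of the window were not all at that level. In FBL KD with empty vector, position 2836 scored 0.670 and 0.694 and position 2841 scored -0.745 and -0.869. Ranks from the most negative were 3 and 6, where the median over all sites was -0.084 and 67.5% of sites were called lower (28.3% lower and 46.7% higher with equal library medians). Library medians moved by -0.138 with empty vector and by -0.0987 without re-expression. With medians made equal both sites stayed lower, by -0.342 at 28S-2848 and -0.533 at 28S-2863 with empty vector, and by -0.103 and -0.355 without re-expression.

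The counts behind the scores differed between the backgrounds. At 28S-2848 without re-expression, the end count next to the site was 24.5 and 15.2 CPM (counts per 1000000 ends of the library) in FBL KD, against 20.3 and 7.77 in control KD, so these counts overlapped. The weighted mean of the flanks was 63.5 and 54.3 CPM in FBL KD, against 139 and 67.8 in control KD. The lower score there went with fewer ends in the flanks, and replicate 2 of control KD, at 67.8, was close to the knockdown libraries in them. With the 5′ or the 3′ flank alone the difference was -0.349 or -0.133. With empty vector the site count at 28S-2848 was 93.7 and 82.1 CPM in FBL KD, against 21.2 and 16.0 in control KD, with flanks at 143 and 139 CPM against 150 and 112. In that background the site itself gained ends while the flanks overlapped.

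At 28S-2863 the site count was higher in both backgrounds. It was 73.9 and 57.5 CPM in FBL KD, against 56.1 and 26.4 in control KD, with flanks of 96.9 and 90.7 against 237 and 104. With empty vector it was 184 and 203 CPM in FBL KD, against 63.1 and 49.0 in control KD, with flanks of 196 and 219 against 211 and 216. The groups with empty vector were apart in the site alone. Without re-expression they were apart in the flanks, but in the site only by 57.5 against 56.1 CPM between the nearest libraries. These scores also rest on few ends, with 221 and 91 next to 28S-2848 in FBL KD without re-expression, against 139 and 43 in control KD. The part that low flank counts play in the loss without re-expression was not tested.

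**Figure D2:**
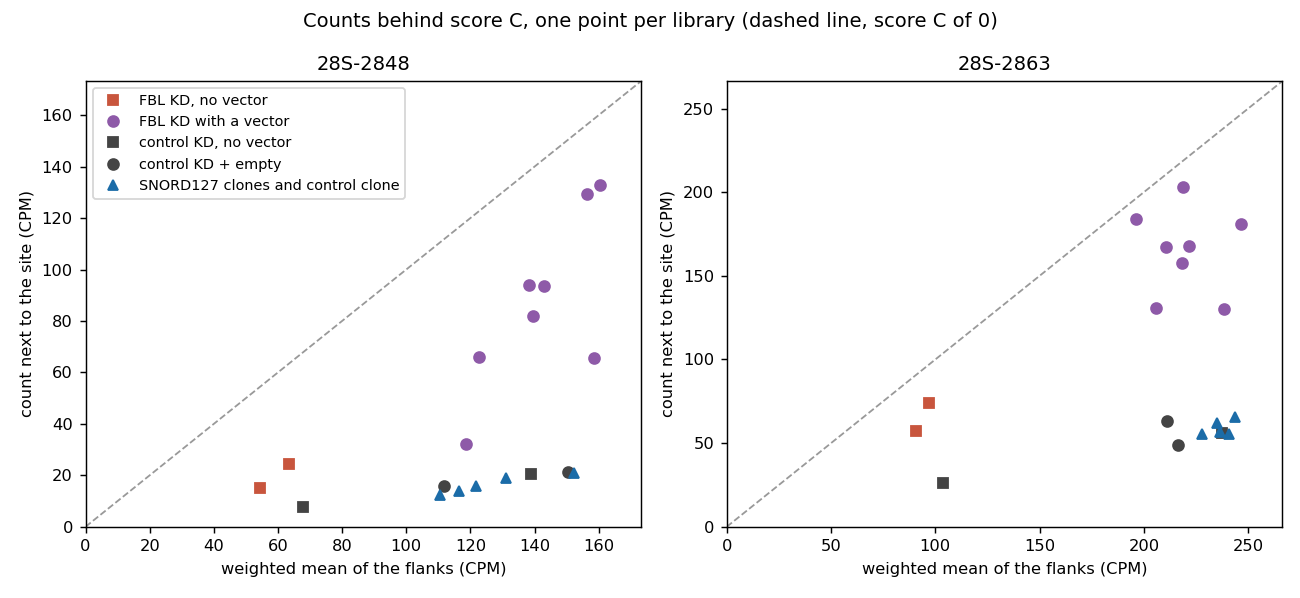
End count next to the site against the weighted mean of its flanks, both in CPM, with 1 point per library; the dashed line marks a score C of 0. FBL KD libraries with a vector move up towards the line at similar flank counts, whereas FBL KD libraries without re-expression sit at the left, with flanks of 54.3 to 63.5 CPM at 28S-2848.

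The end counts of the 24 other positions within 12 nucleotides showed how far the change was limited to the sites. Taking the score at every position of that window, without setting negative values to 0, 28S-2848 did not have the most negative difference in FBL KD without re-expression. There 4 unlisted positions were more negative, down to -0.855 at 4 nucleotides after the site, with -0.469 at 2 before it. At 28S-2863 only 1 of 24 positions was more negative, and it was that same nucleotide, position 2852. The share of window counts at that position reached 12.8% in replicate 2 of FBL KD, against 3.44 to 9.17% in the 18 other libraries. Replicates 1 and 2 of control KD without re-expression held that 3.44 and 9.17%. The scores at the position overlapped, at -0.891 and -1.541 in FBL KD, against 0.191 and -0.913 in control KD.

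With empty vector and both control libraries, 28S-2863 had the most negative difference of its window and 28S-2848 the second most negative, at -0.480, behind -0.563 at 7 nucleotides before it. Replicate 2 of control KD with empty vector had 15.7% of the window counts at 5 nucleotides before 28S-2848, against 2.31 to 6.08% in the other libraries, and 25.2% at 4 after 28S-2863, against 7.88 to 11.2%. These piles lie within the flanks of the scores. With replicate 1 as the only control, both sites had the most negative difference of their 25 positions, at -0.481 for 28S-2848 (others -0.098 to 0.223) and -0.634 for 28S-2863 (others -0.043 to 0.275). With the median of the 12 flanking counts in place of the mean, replicate 2 scored 0.824 at 28S-2848 and 0.638 at 28S-2863, against 0.857 and 0.661 in replicate 1.

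**Figure D3:**
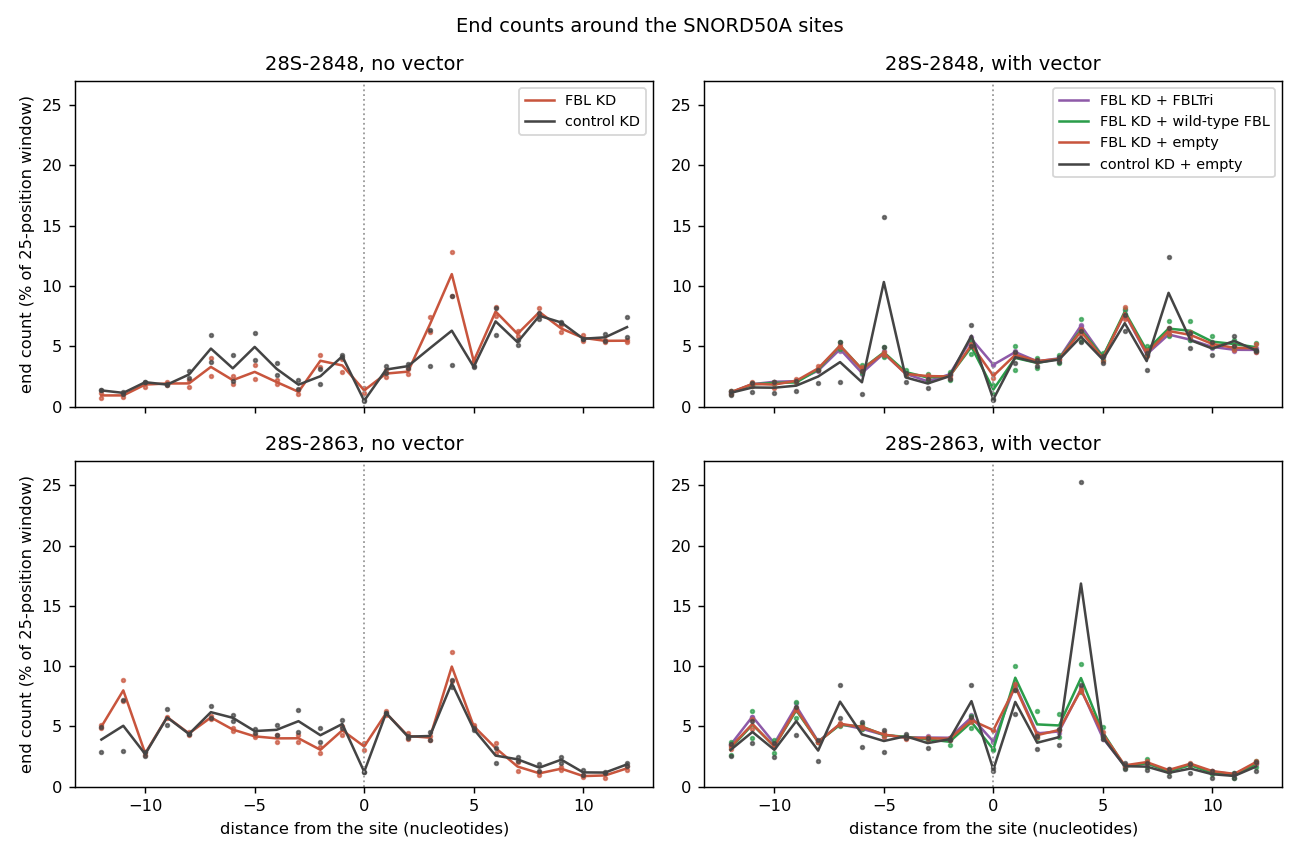
End counts within 12 nucleotides of each site as a percent of the 25-position window, by distance from the site; lines are group means and dots are libraries. The dip at distance 0 is deepest in the control libraries and shallowest in FBL KD with FBLTri at 28S-2848 and with empty vector at 28S-2863, and the tall dots, up to 25.2%, belong to replicate 2 of control KD with empty vector.

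Wild-type FBL in FBL KD cells went with higher scores at both sites than empty vector. 28S-2848 scored 0.728 and 0.587 with wild-type FBL, against 0.344 and 0.411 with empty vector, a difference of 0.279 (SE 0.061). 28S-2863 scored 0.453 and 0.364 with wild-type FBL, against 0.062 and 0.072 with empty vector, a difference of 0.342 (SE 0.048). No library of either group overlapped the other at either site. From the most positive of 120 sites, 28S-2863 ranked 3 and 28S-2848 ranked 7, with a median of 0.053 over all sites and 57.5% called higher (16.7% higher and 41.7% lower with equal library medians). With medians made equal the differences were 0.183 at 28S-2848 and 0.246 at 28S-2863. Within the windows the sites had the highest differences of 25 positions, the 24 others running from -0.079 to 0.046 around 28S-2848 and from -0.236 to 0.057 around 28S-2863.

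The wild-type level remained under that of control KD with empty vector. At 28S-2863 the mean was 0.409 ± 0.063 with wild-type FBL, against 0.737 ± 0.052 in control KD (SD, n = 2 each), a difference of -0.329 (SE 0.048). At 28S-2848 it was 0.657 ± 0.0997 with wild-type FBL, against 0.858 ± 0.002 in control KD (SD, n = 2 each), a difference of -0.200 (SE 0.061). Both differences leave a gap between the libraries, and the site counts show it too: 32.3 and 65.5 CPM with wild-type FBL at 28S-2848, against 21.2 and 16.0 in control KD. Replicate 1 of wild-type FBL was the higher of its pair at both sites, and without replicate 2 the difference at 28S-2848 was -0.130. Of all sites 29.2% were called lower here (10.8% lower and 20.8% higher with equal library medians).

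The pair parted in the FBLTri libraries. 28S-2848 scored 0.172 and 0.172 with FBLTri, the lowest among the 19 libraries, against 0.728 and 0.587 with wild-type FBL and 0.344 and 0.411 with empty vector. 28S-2863 scored 0.244 and 0.276 with FBLTri, against 0.453 and 0.364 with wild-type FBL and 0.062 and 0.072 with empty vector. FBLTri thus lay below empty vector at one site and above it at the other, with no overlap at either. The differences from empty vector were -0.206 (SE 0.061) at 28S-2848, the most negative of the 120 sites, and 0.193 (SE 0.048) at 28S-2863, the second most positive, around a median of -0.001. Both comparisons with empty vector use the same 2 empty-vector libraries. Against wild-type FBL the FBLTri differences were -0.485 (SE 0.061) at 28S-2848, rank 2 from the most negative, and -0.149 (SE 0.048) at 28S-2863, rank 30. With library medians made equal these were -0.388 and -0.052.

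In end counts, the position next to 28S-2848 had 133 and 129 CPM with FBLTri, against 93.7 and 82.1 with empty vector, over flanks of 160 and 156 against 143 and 139. At 28S-2863 it had 168 and 158 with FBLTri, against 184 and 203 with empty vector. Judged by the 5′ flank alone, the FBLTri scores at 28S-2848 were 0 and 0.008, so ends there were about as frequent as upstream of it; by the 3′ flank alone they were 0.297 and 0.290. In the window of 28S-2848 the site had the most negative difference from empty vector of 25 positions, the others running from -0.091 to 0.137, and in that of 28S-2863 the most positive, the others running from -0.082 to 0.068. Of all sites 20% were called lower and 16.7% higher than empty vector (16.7% and 14.2% with equal library medians).

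The FBLQua libraries lay apart from the FBLTri libraries at 28S-2848 and overlapped them at 28S-2863. At 28S-2848 the score was 0.462 and 0.319 with FBLQua, against 0.344 and 0.411 with empty vector, which overlapped (difference 0.013, SE 0.061, 95% interval -0.126 to 0.151). At 28S-2863 it was 0.266 and 0.205 with FBLQua, against 0.062 and 0.072 with empty vector, a difference of 0.169 (SE 0.048) and the most positive of the 120 sites. The sign at 28S-2848 was not stable, the difference being -0.059 without replicate 1 and 0.085 without replicate 2 of FBLQua, and -0.021 without replicate 1 of empty vector. With the 5′ flank alone the difference at 28S-2863 was 0.084. Both empty-vector scores were then negative and set to 0, which makes this difference smaller. Relative to wild-type FBL, FBLQua differed by -0.267 (SE 0.061) at 28S-2848 and by -0.173 (SE 0.048) at 28S-2863, ranks 5 and 20 from the most negative, and by -0.165 and -0.072 with equal library medians. In FBLQua against empty vector 7.5% of sites were called higher and 11.7% lower (10.8% each with equal library medians). Against wild-type FBL 62.5% of sites were called lower with FBLTri and 59.2% with FBLQua (20% and 19.2% lower, with 35% and 35.8% higher, after library medians were made equal).

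The order of the groups differed between the sites. At 28S-2848 the means rose in the order FBLTri, empty vector, FBLQua, wild-type FBL, FBL KD without re-expression, and then the groups without FBL knockdown. Empty vector and FBLQua overlapped, as did wild-type FBL and FBL KD without re-expression. At 28S-2863 the order was empty vector, FBLQua, FBLTri, FBL KD without re-expression, wild-type FBL, and then the groups without FBL knockdown, and each neighbouring pair from FBLQua to wild-type FBL overlapped.

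The score at 28S-2848 minus that at 28S-2863 summed up the parting. It was -0.072 and -0.104 with FBLTri, 0.196 and 0.114 with FBLQua, 0.274 and 0.223 with wild-type FBL, 0.283 and 0.339 with empty vector in FBL KD, and 0.083 and 0.158 in control KD with empty vector. In FBL KD without re-expression it was 0.377 and 0.355, against 0.090 and 0.140 in control KD. The libraries without FBL knockdown held it between 0.083 and 0.158, and FBLTri was the only group of the 11 in which it was negative.

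**Figure D4:**
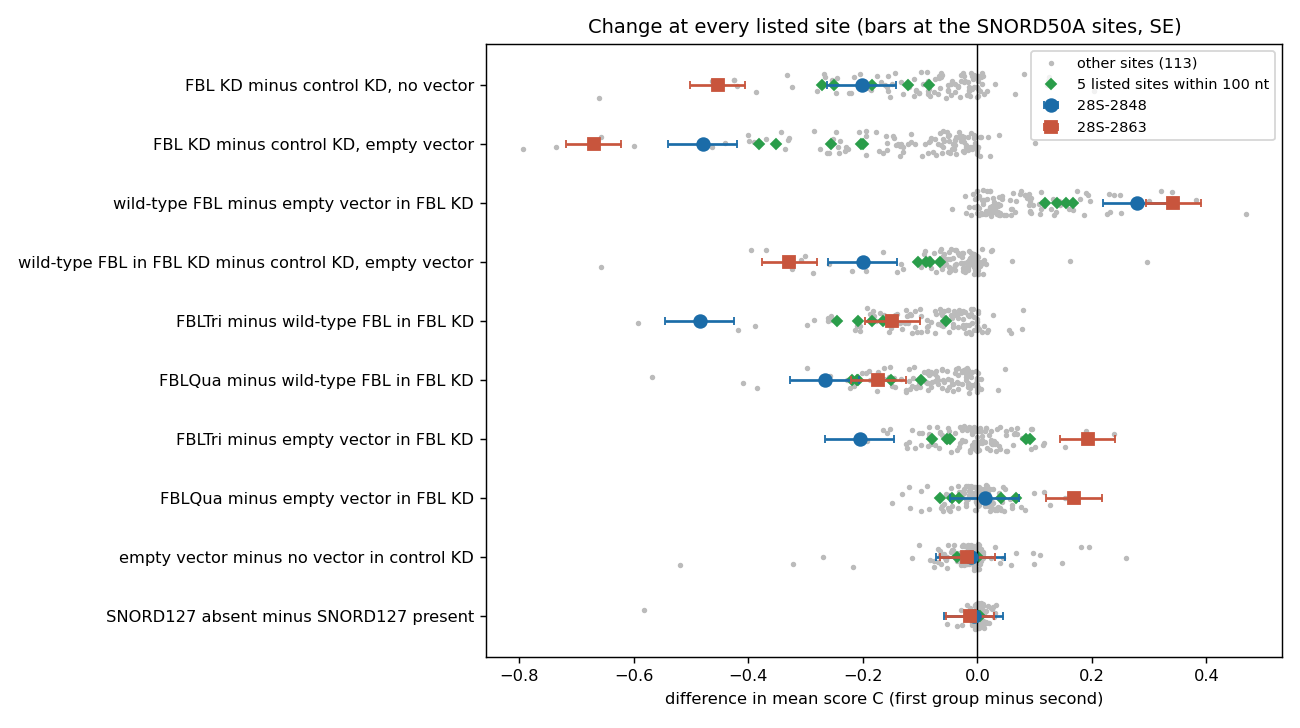
Difference in mean score C between 2 groups at each of 120 sites, for 10 comparisons; 28S-2848 (circles) and 28S-2863 (squares) carry their SE, and diamonds are the 5 listed sites within 100 nucleotides. The SNORD50A sites lie on the same side of 0 in every comparison except FBLTri minus empty vector, where they are at -0.206 and 0.193.

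Over the 14 knockdown libraries the pair did not follow each other most closely, although they share a guide. Pearson's r between them was 0.83, a likeness that ranked 49 of 119 for 28S-2848 and 46 of 119 for 28S-2863. Most alike to 28S-2848 were 28S-3848 (SNORD53, r = 0.97), 28S-2802 (SNORD95, r = 0.95) and 28S-2388 (SNORD68, r = 0.95). Most alike to 28S-2863 were 28S-2824 (SNORD34, r = 0.97), 28S-4593 (SNORD78, r = 0.97) and 28S-1511 (SNORD32B, SNORD32A and SNORD51, r = 0.96). These values describe sites that share libraries, depth and knockdown, and the median r over the 119 other sites was 0.79 for 28S-2848 and 0.72 for 28S-2863.

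The 5 listed sites within 100 nucleotides, all upstream of the pair, fell in FBL KD in both backgrounds (limma, adjusted p under 0.05). Of all sites 59.2% were called lower without re-expression and 67.5% with empty vector. Their median difference was -0.185 without re-expression and -0.257 with empty vector, against -0.068 and -0.084 over all sites. 28S-2824 (SNORD34), the closest, differed by -0.121 (SE 0.014) and -0.204 (SE 0.014), and 28S-2811 (SNORD95) by -0.272 (SE 0.021) and -0.381 (SE 0.021). With library medians made equal 3 of the 5 were lower without re-expression and all 5 with empty vector, against 23.3% and 28.3% of all sites. All 5 rose with wild-type FBL over empty vector, with a median of 0.155, of which 2 were still called under equal medians. Of all sites 57.5% were called higher there, and 16.7% under equal medians. With empty vector each of the 5 had a smaller difference than either SNORD50A site, whereas without re-expression 28S-2811 (-0.272) and 28S-2774 (SNORD99, -0.250) had larger ones than 28S-2848 (-0.202).

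Relative to empty vector these neighbours differed in both directions with FBLTri. With FBLTri, scores were lower at 28S-2791 (SNORD55, -0.079, adjusted p = 0.000679 by limma) and 28S-2802 (SNORD95, -0.048, adjusted p = 0.00644 by limma). They were higher at 28S-2811 (0.092, adjusted p = 0.01 by limma) and 28S-2824 (0.084, adjusted p = 0.00186 by limma). These calls describe a list chosen with earlier results of these data known. 28S-2774 was not called (-0.053, adjusted p = 0.278 by limma). The call of 28S-2802 was lost without replicate 2 of empty vector and with median flanks (adjusted p up to 0.0584 by limma). That of 28S-2811 was lost without replicate 1 of FBLTri, without replicate 2 of empty vector and with the 3′ flank alone (adjusted p up to 0.0958 by limma). With FBLQua 1 of the 5 was called, 28S-2791 at -0.044 (adjusted p = 0.0286 by limma), a call lost in 7 of 11 alternatives (adjusted p up to 0.168 by limma).

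At the pair, only comparisons outside the FBL knockdown were tested. Empty vector in control KD was not called as different from control KD without re-expression at either site. 28S-2848 scored 0.859 and 0.856 with empty vector, against 0.854 and 0.885 without (difference -0.012, SE 0.061, 95% interval -0.150 to 0.126, adjusted p = 0.945 by limma). 28S-2863 scored 0.701 and 0.774 with empty vector, against 0.764 and 0.746 without (difference -0.018, SE 0.048, 95% interval -0.128 to 0.093, adjusted p = 0.935 by limma). The groups overlapped at both sites, and 7.5% of all sites were called lower and 0.833% higher (2.5% and 1.67% with equal library medians).

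SNORD127 loss was not called at the pair. 28S-2848 scored 0.870 in clone C1, 0.855 in clone C34 and 0.880 in clone C1 with empty vector, against 0.887 in the control clone and 0.863 in clone C1 with SNORD127. The difference was -0.006 (SE 0.052, 95% interval -0.123 to 0.110, unadjusted p = 0.904 and adjusted p = 1 by limma). 28S-2863 scored 0.730, 0.737 and 0.770 in the same libraries without SNORD127, against 0.757 and 0.760 with it. There the difference was -0.013 (SE 0.042, 95% interval -0.107 to 0.081, unadjusted p = 0.767 and adjusted p = 1 by limma). The libraries overlapped at both sites, and 0.833% of all sites were called lower. Re-expression of SNORD127 in clone C1 gave 0.863, against 0.880 with empty vector, at 28S-2848 and 0.760, against 0.770, at 28S-2863, single libraries whose counting intervals overlap. The errors and intervals for SNORD127 loss rest largely on the spread between knockdown libraries. Outside those, only the knockout clones C1 and C34 share a group.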

How the data were processed

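Per the labels' protocols, 100 ng of total RNA from cells in 20% serum was broken by alkaline hydrolysis (12 min, 95 °C) into pieces near 30 nucleotides for small RNA libraries. The submitters' processing notes name cutadapt and Bowtie2, with no version, reference or setting. The authors deposited raw end counts for 7000 rRNA positions, not normalized, and score C, a fraction from 0 to 1, for 120 sites. Score C is 1 minus the count 1 position after the site over the mean of both flanks, each a weighted mean of 6 positions with weights falling from 1 to 0.5. Recomputed so from the counts, and set to 0 where negative, all 2280 values matched the deposited ones to 1e-09. 0 of the scores at the SNORD50A sites was 0.

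Groups came from the titles. The members, lists and comparisons were chosen with earlier results of these data known. Standard errors, intervals, calls and p-values came from limma 3.58.1 in R 4.3.3 on score C over all 120 sites, with group coefficients, trended variances and two-sided tests, Benjamini-Hochberg adjusted at 0.05. Knockdown comparisons used the 14 knockdown libraries and the SNORD127 comparison all 19, weighting group means by libraries. For the tested comparisons, the fit was checked on simulated scores with known changes. Flank counts there were the same in every library, unlike in the data, so the check does not cover errors under the real spread between replicates. Counting intervals (95%) came from Poisson variances; without molecular identifiers, reads need not be independent molecules. Counts of each replicate pair differed beyond sampling noise (chi-square of 17.9 to 699.8 for each position on average). The highest were 699.8 in control KD with empty vector and 397.3 in control KD without re-expression, against at most 99.7 in the other pairs. Named sites were the pair, listed 28S sites within 100 nucleotides, the 3 most alike by Pearson's r over the 14 knockdown libraries, and neighbours in rank in control KD. Alternatives were a flank of 2 positions, scores not set to 0, equal library medians, a replicate block, each library left out and, where tested, a logit scale, untrended variances, a fit of the compared groups only and a filter dropping the 10% of sites with fewest flank counts. One-sided and median flanks were added after seeing the data, and their scores were set to 0 where negative. Counts and plots used Python 3.11.15 with numpy 2.4.6, pandas 2.3.3 and, for drawing, matplotlib 3.10.9.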

Additional observations from a re-analysis of the deposited data

Results flagged for a closer look

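1 result stood out by a difference between groups. Relative to empty vector in FBL KD cells, every FBLTri library was lower at 28S-2848, with a mean difference of -0.206, while every wild-type FBL library was higher, with a mean difference of 0.279. The comparison uses the same empty-vector libraries on both sides and the difference between the re-expressed proteins was not tested there, since the site was singled out with it known.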

How the results depend on the processing

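There were 238 combinations of a value and an alternative. Of these, 189 stayed on their side of the threshold or, if described only, within the SD between replicates (0.064 at 28S-2848, 0.050 at 28S-2863). Another 41 described values moved further, and 8 tested ones near 0 changed sign, none of them called. Among tested values that kept their sign, the vector in control KD at 28S-2863 moved from -0.018 to -0.087 with median flanks (adjusted p = 0.355 by limma). With the 5′ flank alone it was -0.056 (adjusted p = 0.396 by limma). Of the described values, FBLQua against empty vector at 28S-2848 also changed sign, to -0.0096 with a flank of 2, -0.00028 with median flanks, -0.021 without empty-vector replicate 1 and -0.059 without FBLQua replicate 1. The cause of the moves was not tested. In the order 28S-2848 then 28S-2863, library medians made equal gave -0.103 and -0.355 for FBL KD against control KD without re-expression, -0.342 and -0.533 with empty vector, 0.183 and 0.246 for wild-type FBL against empty vector, -0.388 and -0.052 for FBLTri and -0.165 and -0.072 for FBLQua against wild-type FBL, and 0.0078 and 0.0022 for the vector in control KD. A flank of 2 positions gave -0.269 at 28S-2848 for FBL KD without re-expression, and at 28S-2863 -0.580 with empty vector and -0.268 for wild-type FBL against control KD. The 5′ flank alone gave -0.349 and -0.566 for FBL KD without re-expression, -0.589 at 28S-2848 with empty vector, -0.396 at 28S-2863 for wild-type FBL against control KD, -0.582 at 28S-2848 for FBLTri against wild-type FBL, 0.084 at 28S-2863 for FBLQua against empty vector and 0.0010 at 28S-2848 for the vector in control KD. With the 3′ flank alone these were -0.133 and -0.373 without re-expression, -0.398 and -0.613 with empty vector, -0.412 at 28S-2848 for FBLTri against wild-type FBL, and 0.0088 at 28S-2863 for the vector. Median flanks gave -0.290 and -0.515 for FBL KD without re-expression and 0.141 at 28S-2863 for FBLTri against empty vector. At 28S-2863 both libraries of FBL KD with empty vector were set to 0 with the 5′ flank alone and with median flanks. This makes differences from them smaller, among them the 0.084 for FBLQua and the 0.141 for FBLTri.

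Leaving out each library in turn gave -0.255 to -0.149 and -0.518 to -0.389 for FBL KD without re-expression, 0.209 to 0.350 at 28S-2848 for wild-type FBL against empty vector, -0.271 to -0.130 at 28S-2848 for wild-type FBL against control KD, -0.555 to -0.414 at 28S-2848 for FBLTri and -0.338 to -0.195 at 28S-2848 for FBLQua against wild-type FBL, and -0.059 to 0.085 at 28S-2848 for FBLQua against empty vector. For the vector in control KD the ranges were -0.028 to 0.0039 and -0.054 to 0.019, with 0.0039 without replicate 2 of control KD and 0.019 without replicate 1 of control KD with empty vector. For SNORD127 loss they were -0.019 to 0.0057 and -0.025 to -0.0049, with 0.0057 without the control clone and 0.00034 at 28S-2848 without clone C34. A lone library was assumed to vary like the other groups.

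Same-numbered libraries deviated together in 12 of 21 pairs of groups (r over 0.1, range -0.226 to 0.694). The labels do not say what the replicate numbers share, and the main fit did not use them. A replicate block left the differences at -0.202 and -0.453 without re-expression and -0.480 and -0.670 with empty vector and made no call at the pair in the 2 tested comparisons.

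Over all sites, calls against empty vector were 28 to 29, in place of 44, for FBLTri without its replicate 2 or either empty-vector library, and, in place of 23 for FBLQua, 15 without its replicate 1 and 13 with median flanks. Calls for the vector in control KD, 10 in all, were 0 with the compared groups alone, 1 to 19 with a library left out, 5 with equal medians and 31 on a logit scale. The 1 call for SNORD127 loss was not made without clone C1 with SNORD127 or on a logit scale.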
